A study of Homo sapiens with 16 samples.

Results

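The kallikrein-related peptidases KLK5, KLK6, KLK7, KLK8, KLK10, KLK11 and KLK13 were followed over time in HER-2-inhibited breast cancer cells. Their members on the array were found by gene symbol, which gave 14 probes among the 24526 probes of the table. SUM-225 is a breast cancer-derived line in which HER-2 is amplified and over expressed. All cultures received 1 µM CP724,714, a small molecule inhibitor of the HER-2 kinase, and RNA was taken at 3 h intervals up to 45 h, which gave 16 time points including 0 h with 1 array each. The labels describe Ham's F-12 medium with serum, insulin and hydrocortisone, whereas the study's methods name a serum-free medium without insulin for this line. No untreated course was analysed here, so that time in culture, the medium change at the start of treatment and the inhibitor cannot be told apart. With no replicate arrays, errors below come from the scatter of the 16 arrays around a fitted time course, and the number of arrays limits their precision.

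Kallikrein-related peptidases are secreted serine proteases whose genes lie side by side on chromosome 19. They are made as inactive precursors and are activated by cleavage, in part by each other. In skin, KLK5 and KLK7 cut the proteins that hold surface cells together, and the inhibitor encoded by SPINK5 restrains them. In breast, several family members are made by normal epithelium, and KLK10 was first described as a gene lost in breast cancer cells.

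Arrays were similar in quality. The median signal intensity ranged from 242 to 384, and between 57.5% and 61.5% of the probes had a detection p-value under 0.05, the level at which a probe is called detected here. The 27 h array had the highest median signal, so signals below are given as ranges and time courses as normalized log2 values. The 7 marker genes of HER-2-amplified luminal epithelium, ERBB2 and KRT19 among them, were detected on all 16 arrays. Of these 7, KRT8 and KRT18 changed by -0.68 and -0.74 log2 units over 45 h (limma, adjusted p = 2.14e-05 and 7.73e-06), and 0 rose past the threshold of 0.05. Among 6 mesenchymal marker genes, VIM, COL3A1 and PDGFRB were never detected and the others were detected on at most 5 arrays. Of 4 leukocyte marker genes, PTPRC was never detected and CD3E was detected on 1 array, while CD14 and CD68 were detected on all 16. CD14 and CD68 rose by 0.34 and 0.38 log2 units over 45 h (limma, adjusted p = 0.0499 and 0.0341), and their part in the results below was not tested. Because RNA came from whole cultures, fewer cells expressing a gene and less RNA per cell cannot be told apart.

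Of the 14 kallikrein probes, 11 were detected on all 16 arrays and were tested. They covered 6 genes, since KLK13 was never detected. Over the 45 h, 8 of the 11 probes had a linear trend in the limma test at an adjusted p under 0.05, against 47.7% of all 16110 tested probes. All 8 rose and 0 fell, whereas 26.0% of all tested probes rose and 21.7% fell. Each of the 6 genes had at least 1 rising probe, a count that favours genes with several probes and has no share over all genes beside it. The brightest probes of KLK5 and KLK6 changed by only 0.02 and 0.09 log2 units (limma, adjusted p = 0.727 and 0.514). KLK11 rose most, by 1.72 ± 0.16 (SE) log2 units or 3.30-fold over 45 h. KLK8 (1.04 on its bright and 1.21 on its dim probe) and KLK7 (1.08 and 0.94) followed, and their order depended on the probe. The first place of KLK11 depended on the fit: when the fit also allowed a step after 21 h, its linear change was 0.52 (limma, adjusted p = 0.243). The rises of at least 1 log2 unit numbered 4 of 11 probes, against 5.66% of all probes. The same 8 probes made up the count of time-dependent probes by the F-test of a cubic course, against 51.3% of all probes. The median linear change was 0.94 log2 units for the 11 probes and 0.05 for all tested probes. These counts describe 6 genes, since several probes share a gene symbol.

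**Figure D1:**
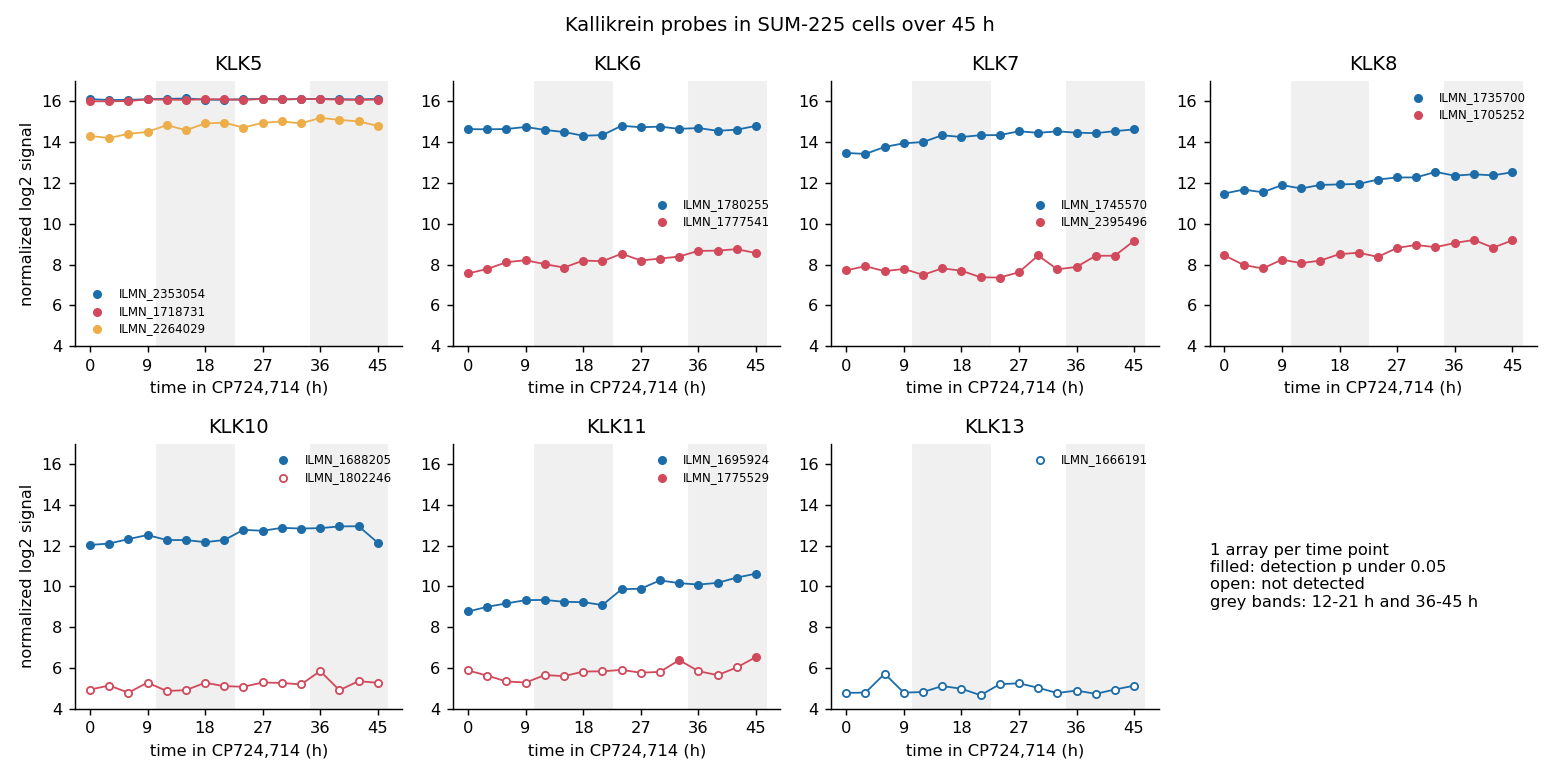
Normalized log2 signal of the 14 kallikrein probes (vertical axes) against hours in CP724,714 (horizontal axes), 1 array per point, with filled points where the detection p was under 0.05. The KLK11 probe ILMN_1695924 goes from 8.77 at 0 h to 10.63 at 45 h, the 2 upper KLK5 probes lie level near 16, and KLK13 has open points only.

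The sequences before 3 of the genes are shown because KLK7 and KLK11 were among the genes that rose most, and KLK9, which lies between KLK8 and KLK10, fell (below). They come from RefSeq promoter windows of GRCh38.p14 and run from 250 bases before an annotated start to 50 bases after it, 5′ to 3′ on the minus strand, on which these genes lie. Where a gene has several starts, the one farthest upstream is given. Capitals mark the first 50 transcribed bases. The windows are chr19:50984015-50984314 for KLK7, chr19:51009543-51009842 for KLK9 and chr19:51027597-51027896 for KLK11.
KLK7: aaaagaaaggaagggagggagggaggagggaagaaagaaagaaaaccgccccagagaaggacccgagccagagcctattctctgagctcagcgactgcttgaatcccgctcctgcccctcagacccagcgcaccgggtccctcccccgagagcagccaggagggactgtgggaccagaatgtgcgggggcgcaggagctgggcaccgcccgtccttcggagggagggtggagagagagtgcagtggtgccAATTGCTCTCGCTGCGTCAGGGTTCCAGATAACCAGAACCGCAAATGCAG
KLK9: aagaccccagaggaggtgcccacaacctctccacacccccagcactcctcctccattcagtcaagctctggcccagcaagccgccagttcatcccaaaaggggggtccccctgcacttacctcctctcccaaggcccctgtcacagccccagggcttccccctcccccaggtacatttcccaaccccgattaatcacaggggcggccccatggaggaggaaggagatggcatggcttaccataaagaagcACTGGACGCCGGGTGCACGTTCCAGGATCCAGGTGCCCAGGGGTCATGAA
KLK11: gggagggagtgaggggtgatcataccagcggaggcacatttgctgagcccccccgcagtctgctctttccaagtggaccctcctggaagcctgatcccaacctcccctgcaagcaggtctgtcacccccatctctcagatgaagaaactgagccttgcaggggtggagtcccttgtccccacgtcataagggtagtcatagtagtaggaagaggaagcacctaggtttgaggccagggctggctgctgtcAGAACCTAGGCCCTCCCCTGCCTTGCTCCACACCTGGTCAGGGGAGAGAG

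The table held 11 such windows for 6 of the 7 genes, and none for KLK8. The windows of KLK7 overlap each other, as do those of KLK10 and of KLK13, so the 11 are not separate sequences. The GC content of these windows ranged from 59.0% to 70.7%, against a median of 58.7% over all 35116 windows of the same length. The KLK11 window shown held 3 CpG dinucleotides, the KLK9 window 6 and the KLK7 window 15, against a median of 14 over all windows. The AP-1 motif TGANTCA, searched on both strands, was in 0 of the 11 windows and in 7.71% of all windows. The steroid receptor motif AGAACA, also searched on both strands and not overlapping the first, was in 0 of the 11 windows and in 14.8% of all windows. Among the other kallikreins it was in the KLK3 window. These are matches of letters in a short window and say nothing of what binds there.

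KLK7 encodes a chymotrypsin-like protease, the stratum corneum chymotryptic enzyme. Its brighter probe, ILMN_1745570, had signal intensities between 9180.4 and 34677 with a median of 20364. On the normalized log2 scale it began at 13.47 (0 h) and 13.43 (3 h), reached 13.95 by 9 h and 14.34 by 15 h, and then crept up through 14.54 (27 h) to its highest value, 14.63 (45 h). Most of the rise was thus over by 15 h, the first time at which it was 1.7-fold above 0 h. All 8 arrays from 24 h on were above all 8 earlier arrays, although the highest earlier value (14.34) and the lowest later one (14.35) nearly met. The linear change was 1.08 ± 0.07 (SE) log2 units (limma, adjusted p = 7.8e-10). The second- and third-order terms of the fit, tested together for curvature, were also past the threshold (adjusted p = 0.00102).

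The other KLK7 probe, ILMN_2395496, was dim, with signals between 295 and 596. It stayed between 7.36 and 7.92 log2 units through 27 h, rose to 8.45 at 30 h, went back to 7.76 at 33 h and ended at 9.17 at 45 h. Its linear change was 0.94 ± 0.20 (SE) log2 units (limma, adjusted p = 0.00066). Without the 45 h array it was 0.60 ± 0.22 (SE, adjusted p = 0.0325). The 2 KLK7 probes therefore differed in the timing of their rise, with a Pearson r of 0.36 over the 16 arrays. The files do not say which transcripts each probe reports.

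KLK5 encodes a trypsin-like protease that activates the KLK7 precursor and other members. Of its 3 probes, ILMN_2353054 and ILMN_1718731 lay near the top of the signal scale. Their signals were 92.4% to 100% and 86.8% to 98.5% of the brightest probe of each array, and their whole log2 ranges were 0.08 and 0.12 units. Their linear changes were 0.02 ± 0.04 and 0.08 ± 0.04 (SE) log2 units (limma, adjusted p = 0.727 and 0.107). A rise of KLK5 transcripts has little room to appear on these probes.

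The remaining KLK5 probe, ILMN_2264029, had signals between 15978 and 44691 with a median of 28961, at most 61.5% of the array maximum. It stood at 14.30 log2 units at 0 h, was lowest at 3 h (14.21) and highest at 36 h (15.19), and ended at 14.80 at 45 h. Its linear change was 0.76 ± 0.10 (SE) log2 units (limma, adjusted p = 2.27e-06), with curvature (adjusted p = 0.0233). It reached 1.7-fold above 0 h at 2 time points, the first of them at 36 h. KLK5 thus rose on the probe that was not near the ceiling.

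**Figure D2:**
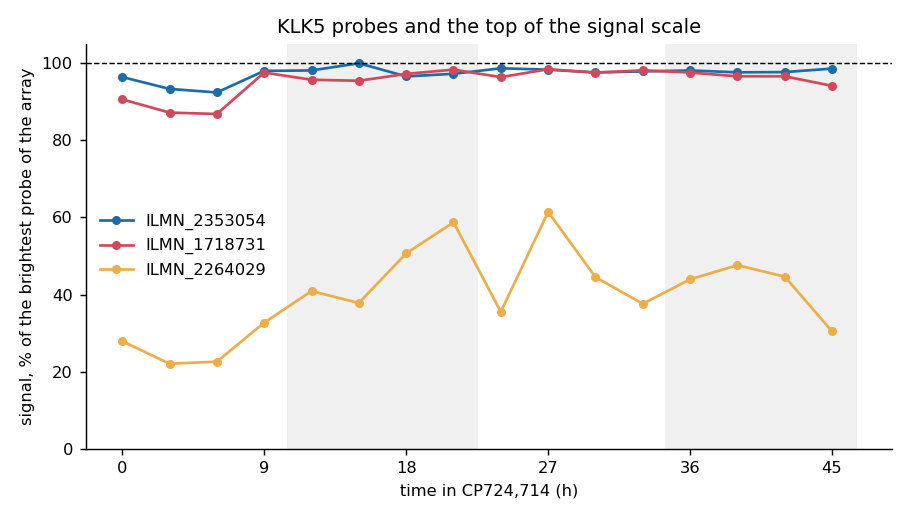
Signal intensity of the 3 KLK5 probes as a percentage of the brightest probe of the same array (vertical axis, from 0) against hours in CP724,714. Probes ILMN_2353054 and ILMN_1718731 stay at or above 86.8% throughout, and ILMN_2264029 moves between 22.1% and 61.5%.

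KLK8 encodes neuropsin, a trypsin-like protease of skin and brain. Its brighter probe, ILMN_1735700, had signals between 2162 and 7814 with a median of 4708. In log2 units it was lowest at 0 h (11.48), stood at 11.95 at 21 h and 12.17 at 24 h, was highest at 33 h (12.55) and ended at 12.53. Its 8 arrays from 24 h on were all above the 8 earlier ones. Over 45 h it rose by 1.04 ± 0.09 (SE) log2 units (limma, adjusted p = 1.71e-08). Curvature was not past the threshold (adjusted p = 0.417).

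The dimmer KLK8 probe, ILMN_1705252, had signals between 309 and 903. It first went down, from 8.45 at 0 h to 7.81 at 6 h, and then up to 9.21 at 39 h. Its linear change was 1.21 ± 0.15 (SE) log2 units (limma, adjusted p = 1.98e-06). The difference from the brighter probe was not tested. The 2 probes had an r of 0.86 with each other over the 16 arrays, although they moved apart between 0 h and 6 h, where the brighter one changed by 0.06 and the dimmer one by -0.65.

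KLK11 encodes a trypsin-like protease, also called hippostasin. Its probe ILMN_1695924 had signals between 536 and 1692 with a median of 1001. The lowest log2 value was at 0 h (8.77). The value then lay between 9.00 and 9.34 from 3 h to 21 h, went from 9.09 at 21 h to 9.86 at 24 h, and was highest at 45 h (10.63). The 2 parts of the course did not overlap, with 8 arrays up to 21 h at or below 9.34 and 8 arrays from 24 h on at or above 9.86. The difference of 0.77 log2 units between 21 h and 24 h, the largest between neighbouring times for this probe, is one between single arrays and falls where 2 blocks of 4 time points meet (below). The linear change was 1.72 ± 0.16 (SE) log2 units (limma, adjusted p = 5.74e-08). A second KLK11 probe, ILMN_1775529, was detected on 2 arrays only, those at 33 h and 45 h, which also gave its highest log2 values (6.39 and 6.54), and it was not tested.

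KLK10 was measured by ILMN_1688205, with signals between 3556 and 10582 and a median of 6183. Its log2 value rose from 12.04 at 0 h to 12.52 at 9 h, lay between 12.17 and 12.28 from 12 h to 21 h, and between 12.73 and 12.95 from 24 h to 42 h. At 45 h it was 12.15, lower than at 42 h by 0.81 log2 units, a drop of 1.7-fold or more that 4.60% of all tested probes shared. The 45 h value was only 0.11 above 0 h. Over all arrays it rose by 0.70 ± 0.15 (SE) log2 units (limma, adjusted p = 0.000818). Without the 45 h array the rise was 1.00 ± 0.13 (SE, adjusted p = 6.24e-06). When a step after 21 h was allowed, the linear change was 0.077 (limma, adjusted p = 0.913). The other KLK10 probe, ILMN_1802246, was never detected, its lowest detection p being 0.0865.

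KLK6 encodes neurosin, a trypsin-like protease known for cleaving myelin basic protein. Its probes gave different courses. The bright one, ILMN_1780255, had signals between 19754 and 39711 with a median of 24924, and its log2 value stayed between 14.32 (18 h) and 14.81 (24 h). The linear change of this probe was 0.09 ± 0.11 (SE) log2 units (limma, adjusted p = 0.514). It declined from 14.75 at 9 h to 14.35 at 21 h, and it stood 0.46 log2 units higher at 24 h than at 21 h. When a step between 21 h and 24 h was added to the fit, its linear change was -0.80 ± 0.16 (SE, adjusted p = 0.00107). The dim KLK6 probe, ILMN_1777541, had signals between 321 and 661, rose from 7.56 at 0 h to 8.76 at 42 h, and had a linear change of 0.95 ± 0.15 (SE) log2 units (limma, adjusted p = 3.03e-05). The r between the 2 KLK6 probes was 0.25 over the 16 arrays.

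KLK13, a trypsin-like protease, had a single probe, ILMN_1666191, whose signals lay between 141 and 226. Its lowest detection p over the 16 arrays was 0.158, so it was never detected. Together with ILMN_1802246 of KLK10, 2 of the 14 probes were never detected, and no direction is given for them.

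**Figure D3:**
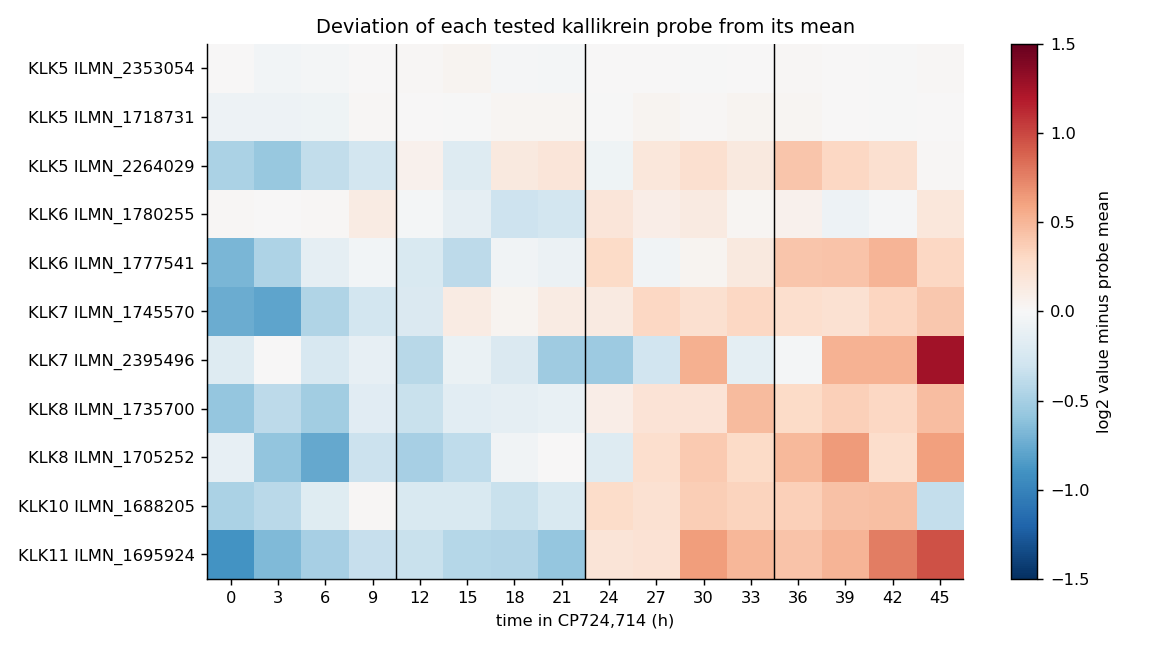
Normalized log2 value of each of the 11 tested kallikrein probes minus its own mean over the 16 arrays (colour), by hours in CP724,714 (horizontal axis). Vertical lines separate successive blocks of 4 time points. KLK11 runs from -0.90 at 0 h to 0.96 at 45 h, both bright KLK5 probes stay pale, and KLK10 turns blue again at 45 h.

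Across the 11 probes, the median deviation from each probe's own mean climbed from -0.47 log2 units (0 h) and -0.24 (6 h) to -0.09 by 21 h and 0.10 by 24 h, was highest at 39 h (0.36) and ended at 0.31. All 11 were higher at 45 h than at 0 h, as were 52.9% of all tested probes, and 5 of 11 were higher by 1.7-fold or more, against 13.7%. The difference between 45 h and 0 h was only 0.01 and 0.08 log2 units for the KLK5 probes near the ceiling (ILMN_2353054 and ILMN_1718731). It was 0.11 for KLK10 and 0.16 for the bright KLK6 probe. All 11 probes were also higher at 9 h than at 6 h, against 51.4%, by only 0.04 log2 units for KLK5 (ILMN_2353054). A change of 1.7-fold from 0 h at any later time was reached by 7 of the 11, against 50.3% of all tested probes. It is a comparison with a single array. The study used this size as a first filter of genes in another cell line, MCF10HER2. The 8 later arrays were all above the 8 earlier ones for 3 of 11 probes (KLK7, KLK8 and KLK11), against 3.71%. From 21 h to 24 h, 2 of 11 probes rose by 0.5 log2 units or more (KLK10 and KLK11), against 7.39%. Curvature was past the threshold for 3 of 11, against 19.3%, and for 1 of 11 without the 45 h array (limma).

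The members were not copies of one course. The 55 pairs of tested probes had a median r of 0.56 over the 16 arrays, from -0.11 (a KLK5 and a KLK6 probe) to 0.93 (KLK8 and KLK11). The r of the KLK7 and KLK8 bright probes was 0.89. These probes share arrays and a common trend in time, and several share a gene. The bright KLK7 probe rose early and then levelled, while the dim one was lowest at 24 h and highest at 45 h. KLK11 and KLK10 were higher at 24 h than at 21 h by 0.77 and 0.50. From 21 h to 24 h, the KLK5 probe below the ceiling (ILMN_2264029) had a log2 change of -0.24. The other KLK5 probes changed by 0.03 (ILMN_2353054) and -0.03 (ILMN_1718731).

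Signals also shift between blocks of 4 neighbouring time points that start at 0 h, 12 h, 24 h and 36 h and are called sets here, a grouping known from earlier results of these data that no label names as a batch. With the set as a factor, 0 of the 11 probes had a linear trend past the threshold, and 0.900% of all probes did. The estimate within sets was positive for 8 of 11 probes. It was 1.40 ± 0.34 (SE) log2 units for KLK7 (ILMN_1745570, limma, adjusted p = 0.0606), 1.27 ± 0.35 for KLK8 (ILMN_1735700, adjusted p = 0.0924) and 1.59 ± 0.55 for KLK11 (adjusted p = 0.177). For KLK10 it was -0.08 ± 0.66 (adjusted p = 0.972). Each set spans only 9 h, and the errors were larger than those over all arrays. Whether the sets are steps in the cells or in the handling of the arrays cannot be told apart.

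The other members of the family were examined next. In the RefSeq gene table the order along chromosome 19 is KLK1, KLK15, KLK3, KLK2, KLK4, KLK5, KLK6, KLK7, KLK8, KLK9, KLK10, KLK11, KLK12, KLK13 and KLK14. Of the 8 genes not described above, 6 were tested by their brightest probe. Of these, 3 rose and 1 fell, against 26.0% and 21.7% of all tested probes. KLK4, a protease known from enamel formation, rose by 1.62 ± 0.12 (SE) log2 units (limma, adjusted p = 1.56e-09), its log2 value being 7.53 at the start and 9.01 at the end. KLK14, a trypsin-like protease of skin, rose by 1.37 ± 0.25 (adjusted p = 0.000152), was highest at 33 h (7.99) and was back at 6.42 at 45 h, against 6.40 at 0 h. KLK12 rose by 0.47 ± 0.16 (adjusted p = 0.017), which was not past the threshold under cyclic loess normalization (0.39, adjusted p = 0.0537) or without the 3 h array (0.41, adjusted p = 0.057). These probes were dim, with signals between 298 and 851 for KLK4, 221 and 486 for KLK14, and 279 and 556 for KLK12.

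KLK9 went the other way. Its linear change was -1.56 ± 0.21 (SE) log2 units (limma, adjusted p = 4.37e-06), from 7.47 at 0 h through a high of 8.04 at 9 h to a value below detection at 45 h. It was detected on 14 arrays, and at 45 h it was at least 2.34-fold lower than at 0 h. The probe was dim, with signals between 213 and 443, and without background correction its linear change was -0.66. The KLK9 gene lies between KLK8 and KLK10, both of which rose. KLK3, which encodes prostate-specific antigen, had a probe detected on all 16 arrays with a linear change of 0.16 ± 0.15 (adjusted p = 0.408) and a course that depended on time (adjusted p = 0.0173), ending at its lowest value of 9.33. Another KLK3 probe, ILMN_1655426, was detected on 4 arrays only, changed by 0.52 ± 0.23 (limma, adjusted p = 0.0758) and was highest at 45 h (6.25). A further KLK3 probe, ILMN_1748981, was never detected. KLK1, tissue kallikrein, was detected on 8 arrays and changed by -0.16 ± 0.28 (adjusted p = 0.677). KLK2 and KLK15 were detected on at most 2 arrays per probe and were not tested. None of the 4 calls among these genes was past the threshold with the set as a factor, and the same held for the 11 probes above.

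**Figure D4:**
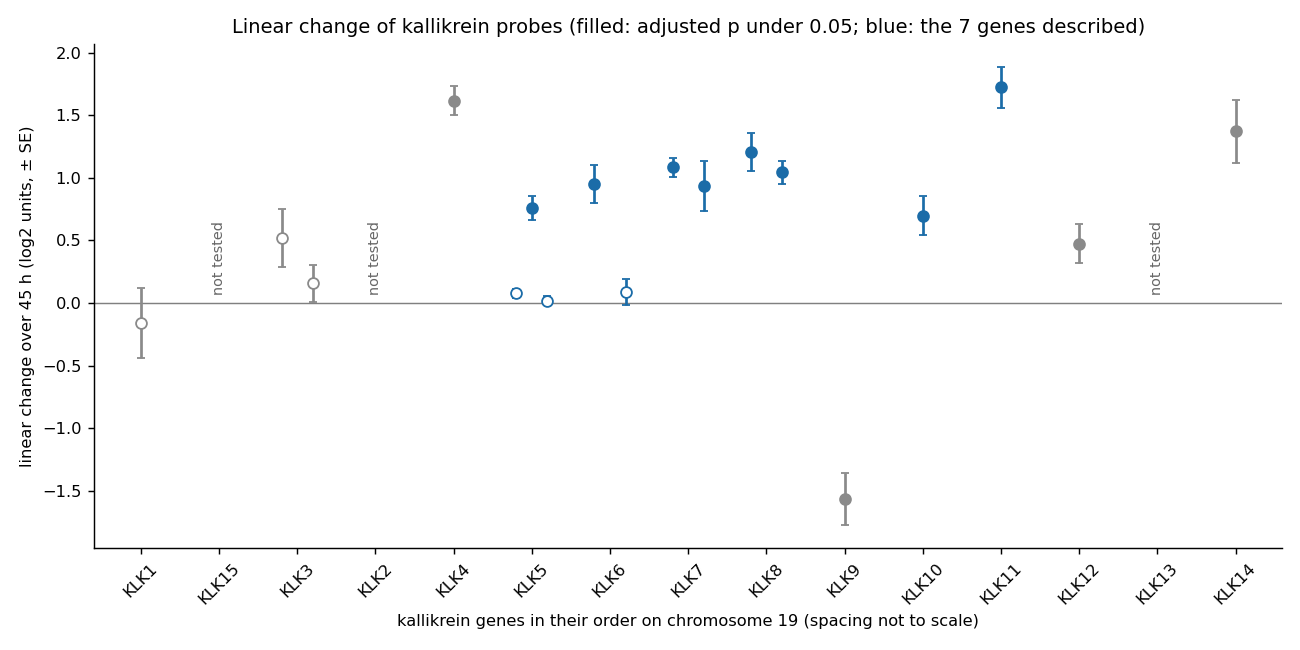
Linear change over 45 h in log2 units with its SE (vertical axis) for each tested kallikrein probe, with genes in their order on chromosome 19 (horizontal axis, spacing not to scale). Filled points have an adjusted p under 0.05 and blue points belong to the 7 genes described. From KLK4 to KLK14 the filled points lie above 0 except KLK9 at -1.56.

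The genes that act with the kallikreins were examined by list. Of all tested probes, 26.0% rose and 21.7% fell. Among the activating and upstream proteases, 11 of 14 genes were tested, and 4 rose and 1 fell (median linear change 0.37 log2 units). TMPRSS2, a membrane-bound serine protease, rose by 1.74 ± 0.11 (SE) log2 units (limma, adjusted p = 2.64e-10). CTSL2 (CTSV in RefSeq), a lysosomal cysteine protease, rose by 1.30 ± 0.10 (adjusted p = 5.83e-09). TMPRSS11D was not detected at 0 h and was at least 2.13-fold higher at 45 h, with a linear change of 1.34 ± 0.25 (adjusted p = 0.000191), but it was detected on 4 arrays only. PRSS8, prostasin, rose by 0.59 ± 0.15 and PRSS3, a trypsin, changed by -0.79 ± 0.21. ST14, which encodes matriptase, an activator of prostasin, changed by 0.23 ± 0.12 (adjusted p = 0.129).

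Of 18 genes for protease inhibitors, 14 were tested, and 6 rose and 3 fell (median 0.22), against 26.0% and 21.7% of all tested probes. SERPINA5, protein C inhibitor, rose by 1.60 ± 0.11 (limma, adjusted p = 7.8e-10). SLPI, secretory leukocyte protease inhibitor, rose by 1.02 ± 0.08 (adjusted p = 1.09e-08). SPINK6, an inhibitor of kallikreins in skin, fell by 1.22 log2 units, with an SE of 0.32 (adjusted p = 0.00385). SPINK5, the inhibitor named above, changed by 0.25 ± 0.22 (adjusted p = 0.382).

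Among 18 receptors and substrates, 14 were tested, and 5 rose and 4 fell (median 0.04), against 26.0% and 21.7% of all tested probes. CAMP, the precursor of the antimicrobial peptide LL-37 that skin kallikreins cut, had the largest change of the list, -2.21 ± 0.22 (limma, adjusted p = 1.31e-07). CDSN, corneodesmosin, a substrate of KLK7, had a linear change of -1.18 ± 0.23 (adjusted p = 0.000341) and was at least 1.89-fold lower at 45 h, where it was not detected, than at 0 h. The CDSN probe was dim, with signals between 221 and 427. DEFB1, a defensin, changed by -0.79 ± 0.13 (adjusted p = 6.36e-05). F2RL1, the protease-activated receptor that KLK5 and KLK14 can cleave, rose by 0.58 ± 0.13 (adjusted p = 0.00098).

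Of 19 genes of epidermal differentiation 16 were tested, and 5 rose and 3 fell (median 0.20), against 26.0% and 21.7% of all tested probes. CNFN, cornifelin, rose by 1.44 ± 0.12 (limma, adjusted p = 9.47e-09) and was the only gene of these lists that stayed past the threshold with the set as a factor (adjusted p = 0.0326). LCE3D, a late cornified envelope protein, and SCEL, sciellin, changed by -1.68 ± 0.23 (adjusted p = 4.82e-06) and -1.27 ± 0.16 (adjusted p = 2.06e-06). Involucrin, IVL, was detected on 10 arrays and changed by 0.29 ± 0.25 (adjusted p = 0.361).

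Of 8 steroid and vitamin receptor genes 7 were tested, and 3 rose and 0 fell (median 0.54), against 26.0% and 21.7% of all tested probes. ESR1, the estrogen receptor, rose by 1.08 ± 0.23 (limma, adjusted p = 0.000605), but its probe was dim, with signals between 213 and 468. NR3C1, the glucocorticoid receptor, rose by 1.00 ± 0.14 (adjusted p = 9.72e-06) on its brighter probe, while its other tested probe changed by -0.10 ± 0.28 (adjusted p = 0.801). RXRA, the shared partner of several nuclear receptors, rose by 0.81 ± 0.11 (adjusted p = 3.59e-06).

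**Figure D5:**
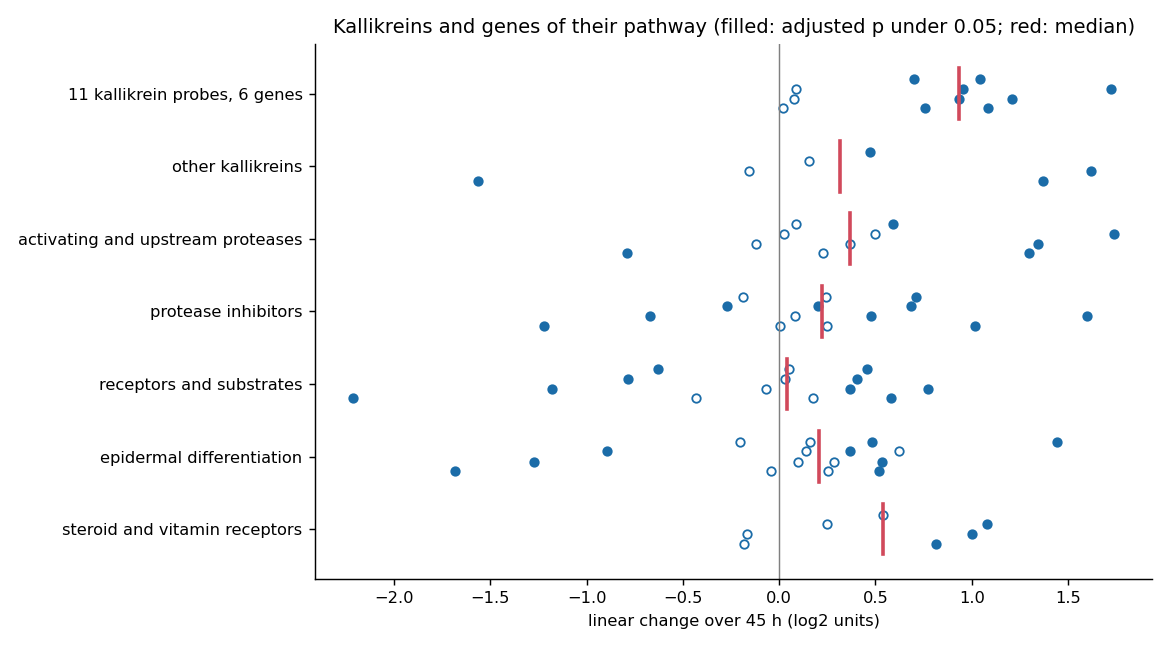
Linear change over 45 h in log2 units (horizontal axis) of the 11 tested kallikrein probes and of the tested genes of 6 related lists (rows), with filled points where the adjusted p was under 0.05 and a red line at each median. The median is 0.94 for the 11 probes and between 0.04 and 0.54 for the lists. The 11 points are all tested probes of 6 genes, whereas each list gene is shown once, by its brightest probe, so the medians are of unlike units.

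Likeness of course was measured by Pearson's r over the 16 arrays among 12328 probes detected on all arrays outside the family, as a description. The genes closest to the bright KLK7 probe were WDSUB1, RPS29 and ZNF181 (r = 0.98, 0.97 and 0.97). Closest to KLK8 were BCAS1, DOCK11 and ATP6V1B1 (0.97 each), and closest to KLK11 were SLC29A3, MUC20 and PLA2G10 (0.98, 0.97 and 0.96). For KLK10 they were TP53I11, MAL and DNM2 (0.93 each), and for the bright KLK6 probe MAPK3, QPRT and SIRT5 (0.86, 0.85 and 0.84). The brightest KLK5 probe, whose range was near the ceiling, reached only 0.80 with VPS37C, 0.80 with SPATA7 and 0.77 with FAM63B. A high r was easily reached for courses that rise with time, since 26.0% of all tested probes rose.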

How the data were processed

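RNA of SUM-225 cells was measured on 1 Illumina bead array per time point, and samples were grouped by the time in their labels. The deposited table holds linear signal intensities without background subtraction or normalization, with a detection p-value beside each, as deposited by the authors. The scanning software and genome build are not given in the sources used here. Signals were corrected with limma 3.58.1 in R 4.3.3 (neqc model with controls inferred from detection p-values, offset 16, which shrinks fold changes of dim probes), quantile normalized and put on the log2 scale. Probes with a detection p under 0.05 on 3 or more arrays entered lmFit and eBayes (intensity trend) for a cubic course in hours. The first-order coefficient, scaled to 45 h, is the linear change. Tests were two-sided with Benjamini-Hochberg adjustment over all 16110 probes at 0.05. On simulated data with 200 added linear trends, 78.5% of these were called, and 3.68% of all calls were false. The simulated noise was independent between arrays and held no shift between sets, so it does not cover the shifts described above. Folds against 0 h (1.7-fold) have no test.

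The members, lists and alternatives were chosen with earlier results of these data known. Named genes were all family members, the 3 genes of each list with the largest linear change past the threshold, and the 3 genes most like each member by r. Further list genes were named by their role after their values were seen. Of several probes of a gene outside the family the brightest was used. Probes undetected at 0 h or 45 h got a bound from the dimmest detected probe of the same array, on the log2 scale, or from their own value where higher. Of 108 symbols of members and lists on the array, 104 matched RefSeq (GRCh38.p14) by symbol. Alternatives were no background correction, offset 50, median scaling, cyclic loess, other filters, array weights, other time courses, a step between 21 h and 24 h, the set of 4 arrays as a factor, other fold rules, and each array left out. Figures were drawn with matplotlib 3.10.9.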

Additional observations from a re-analysis of the deposited data

How the results depend on the processing

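The counts of 8 time-dependent probes and 8 with a linear trend were the same under each background, offset, normalization and weight setting, with probes detected on all arrays and without each array. The sizes for dim probes were smaller without background correction. The linear change was then 0.60 for KLK6 (ILMN_1777541), 0.60 for KLK7 (ILMN_2395496) and 0.83 for KLK8 (ILMN_1705252), the last now under 1 log2 unit. It was 1.42 for KLK11, 1.06 for KLK4, 0.64 for KLK14 and -0.66 for KLK9. The bright KLK7 and KLK8 probes were at 1.07 and 1.00. With no filter the linear count was 9, then of 14 probes. With the set of 4 arrays as a factor the linear count was 0, and with a step between 21 h and 24 h it was 5. The count of probes with curvature ranged from 1 (without the 45 h array) to 4 over the arrays left out. With the set as a factor the estimates no longer past the threshold were 0.34 for KLK5 (ILMN_2264029), 0.93 for KLK6 (ILMN_1777541), 1.40 and 2.02 for KLK7, 1.27 and 0.98 for KLK8, and 1.59 for KLK11. Those of KLK10 (-0.083), KLK5 (ILMN_2353054, -0.074) and KLK6 (ILMN_1780255, -0.25) were then negative without passing the threshold. With the step, 0.077 for KLK10, 0.52 for KLK11, 0.65 for KLK6 (ILMN_1777541) and 0.82 for KLK7 (ILMN_2395496) were not past the threshold, while KLK5 (ILMN_2353054, -0.0093) and KLK6 (ILMN_1780255, -0.80) changed sign, the latter past the threshold. The set and the step leave less of the time course to the trend and widen its error. Under median scaling KLK5 (ILMN_2353054) was -0.057 and KLK6 (ILMN_1780255) -0.055, and the cause was not tested. No paired analysis was possible because the time points had a single array each. Precision is limited by background for the dim probes and by the ceiling for KLK5.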
